A study of Mus musculus with 2 samples.

Results

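The genes described here are 31 genes of sterol and fatty acid synthesis that are known targets or controllers of the sterol regulatory element-binding proteins (SREBPs). They were chosen by symbol from that list by a rule that used no measured value, although earlier results of these data were known. All 31 were found among 55536 annotated genes, of which 22028 are protein coding. RNA with a polyA tail was sequenced in 2 libraries of mouse bone marrow-derived macrophages, tissue phagocytes differentiated in vitro from C57BL/6J marrow. The cells received 100 ng/mL Lipid A for 12 h, were kept without it for 12 h, and received 100 ng/mL Lipid A again for 30 min. The receptor Tlr4 recognises Lipid A, the membrane anchor of lipopolysaccharide. The structured treatment field gives lipoprotein A where the free text gives Lipid A, and this was not resolved. Both libraries are biological replicates of this 1 condition, with a biosample record each but the same donor record, and nothing in the labels ties them to different mice, so their spread may be technical. Sex and age were not collected. Unstimulated cells were not analysed here, so no value describes a response to Lipid A.

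Cells make cholesterol from acetyl-CoA through mevalonate, farnesyl diphosphate, squalene and lanosterol, and fatty acids from the same acetyl-CoA through malonyl-CoA. SREBPs are made as membrane-bound precursors. When sterols are low, the escort protein Scap carries them from the endoplasmic reticulum to the Golgi, where proteases release the active factor, and when sterols are high the Insig proteins hold Scap back. In macrophages this system is set against the sterol-sensing LXR receptors, which promote export of cholesterol and also activate Srebf1.

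Replicate 2 had 30780685 gene-assigned counts and replicate 1 had 41938439. All 10 macrophage markers were at 1 TPM or more in both libraries, whereas the 6 adipocyte markers, a cell type rich in lipid synthesis, had 0 counts in both. By counting error only, such a 0 is compatible with 3 counts, which is 0.0975 CPM in replicate 2 and 0.0715 CPM in replicate 1. Among markers of other cells, 1 of 6 for T cells, 1 of 6 for B cells, 2 of 9 for neutrophils and 7 of 7 for stroma reached 1 TPM in both libraries. The 10 early-response genes had a median of 325 TPM in replicate 2 and 184 TPM in replicate 1, and Tnf, which encodes a cytokine, stood at 1198 and 451 TPM. Summed T cell markers were 37.8 TPM in replicate 2 and 58.7 TPM in replicate 1, nearly all from Cd4, and summed B cell markers 5.07 and 8.80 TPM. Summed neutrophil markers were 9.88 TPM in replicate 2 and 75.3 TPM in replicate 1, and summed stromal markers 650 and 573 TPM. The parts of these differences in the ratios below were not tested. In bulk RNA, fewer cells of a type and less RNA per cell cannot be told apart.

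Promoter windows were examined because the genes are grouped by a shared regulator. RefSeq windows (GRCm38.p6, the same assembly as mm10), from 250 bases before to 50 after an annotated start, were given for 24 of the 31 genes, in 32 windows. Fdps, Fdft1, Sqle, Stard4, Scd1, Scd2 and Fads1 had none in the table. In 21 of the 32 windows some of the bases before the RefSeq start lie within the gene as GENCODE M21 annotates it, and in 9 all 250 do, so a window is not always upstream of the transcripts measured here. Motifs were searched as letters on both strands. The 10-base sterol regulatory element had no exact match in any of the 32 windows, beside 0.0999% of 27025 genes with a window. With 1 mismatch allowed it was present in 3 of 24 genes (12.5%), beside 2.22% of all genes and 2.05% of 8548 detected protein-coding genes. These were Hmgcs1, Srebf2 and Nsdhl, at 138, 163 and 206 bases before the start. The shorter form TCACNCCAC, which overlaps the longer one and was chosen after the first matches were seen, was present in Hmgcs1 alone (4.17%), beside 1.44% of all genes. No match says only that these letters are not in the window.

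Motifs of NF-Y and Sp1, factors that commonly bind beside SREBPs, were searched as well. Both are shorter than the sterol element and were more frequent than it over all genes too. Their counts are therefore set beside the background and not beside that element. CCAAT, the NF-Y motif, was present in 19 of 24 genes (79.2%), beside 41.1% of all genes and 43.3% of detected protein-coding genes. GGGCGG, an Sp1 motif, was present in 20 of 24 (83.3%), beside 38.2% and 69.9%. The E-box CACGTG was present in 5 of 24 (20.8%), namely Dhcr7, Hsd17b7, Insig1, Sc5d and Scap, beside 8.09% and 12.2%. Beside detected protein-coding genes, the share for Sp1 was nearer to the background than that for NF-Y. The share for the E-box rests on 5 genes. The shares were not corrected for the number of windows, which was 32 for these 24 genes and 32851 for all 27025. The windows of Hmgcs1, Srebf2 and Nsdhl are shown because they hold the near matches to the sterol element. That of Insig1 is shown because the gene is described below for its ratio between the libraries and its promoter holds an E-box. The 200 bases that end 51 bases before the RefSeq start are printed 5′ to 3′ on the strand of the gene, cut to 162 bases for Srebf2, whose GENCODE transcript starts earlier. Capitals mark matches to any of the searched motifs that lie wholly in the stretch.
Hmgcs1 (chr13:119690101-119690300, + strand): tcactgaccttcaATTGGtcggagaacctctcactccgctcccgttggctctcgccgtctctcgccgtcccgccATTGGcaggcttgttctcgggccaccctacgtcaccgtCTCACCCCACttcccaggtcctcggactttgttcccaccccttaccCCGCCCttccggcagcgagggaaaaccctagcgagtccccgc
Srebf2 (chr15:82147019-82147180, + strand): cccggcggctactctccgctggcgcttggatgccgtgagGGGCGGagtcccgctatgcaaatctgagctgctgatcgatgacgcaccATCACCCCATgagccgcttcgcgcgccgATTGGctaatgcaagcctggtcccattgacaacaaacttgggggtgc
Nsdhl (chrX:72918271-72918470, + strand): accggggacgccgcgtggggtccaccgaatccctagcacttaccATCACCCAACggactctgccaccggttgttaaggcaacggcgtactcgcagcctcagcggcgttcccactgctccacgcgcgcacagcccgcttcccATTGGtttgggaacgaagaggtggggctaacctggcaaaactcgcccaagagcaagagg
Insig1 (chr5:28071162-28071361, + strand): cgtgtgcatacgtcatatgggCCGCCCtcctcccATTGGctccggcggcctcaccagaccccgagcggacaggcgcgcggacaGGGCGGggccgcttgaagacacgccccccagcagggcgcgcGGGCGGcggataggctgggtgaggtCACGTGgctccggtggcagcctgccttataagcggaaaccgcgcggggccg
In these stretches Hmgcs1 held 2 NF-Y matches on the opposite strand, upstream of the near match to the sterol element. Insig1 held 3 Sp1 matches, 1 NF-Y match and the E-box at 101 bases before the start.

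**Figure D1:**
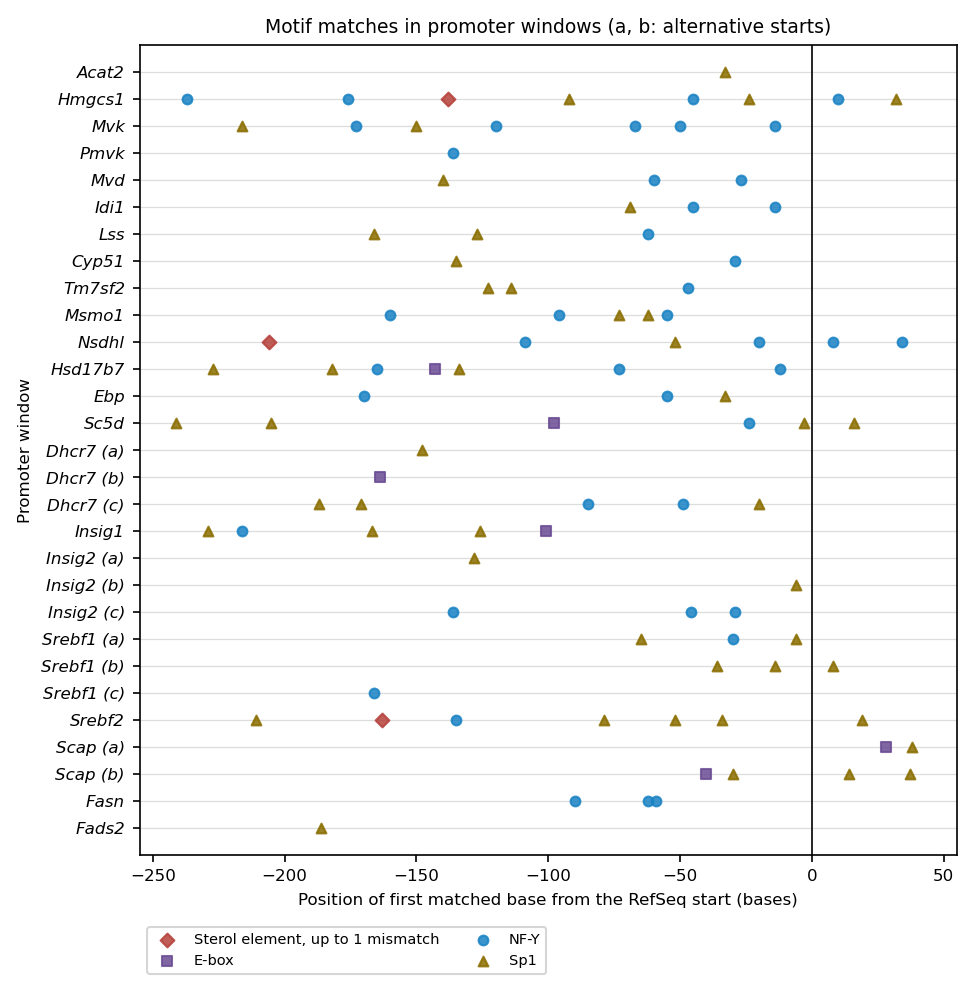
Motif matches in the 29 of 32 promoter windows that hold at least 1, one window per line, with the position of the first matched base in bases from the RefSeq start on the horizontal axis and a symbol per motif. Near matches to the sterol element are in Hmgcs1, Srebf2 and Nsdhl, and NF-Y matches are spread over 19 genes.

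All 31 genes were expressed. Each had a level of at least 1 TPM in both libraries, beside 48.7% of 22028 protein-coding genes. TPM is a level scaled to transcript length and to the library total. Of the 31 genes, 25 were at 10 TPM or more in both. Beside them, 6671 of the 22028 protein-coding genes were, all among the 10727 detected ones. The middle gene of the 31 was at 17.4 TPM in replicate 2 and 20.3 TPM in replicate 1, beside 16.4 and 17.5 TPM for detected protein-coding genes. Together they made up 0.102 ± 0.00239% of all TPM (SD, n = 2). Levels spanned 113-fold, and the leading 3 genes, Scd2, Fads1 and Msmo1, held 38.7% of the summed level. In the order of levels, 10 of 30 neighbouring pairs had ranges that did not overlap between the libraries, among them Scd2 above Fads1, Fads1 above Msmo1, Msmo1 above Fdps and Fdps above Insig1. From Insig1 to Srebf2, 5 genes between 46.5 and 43.2 TPM could not be ordered beyond their spread.

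**Figure D2:**
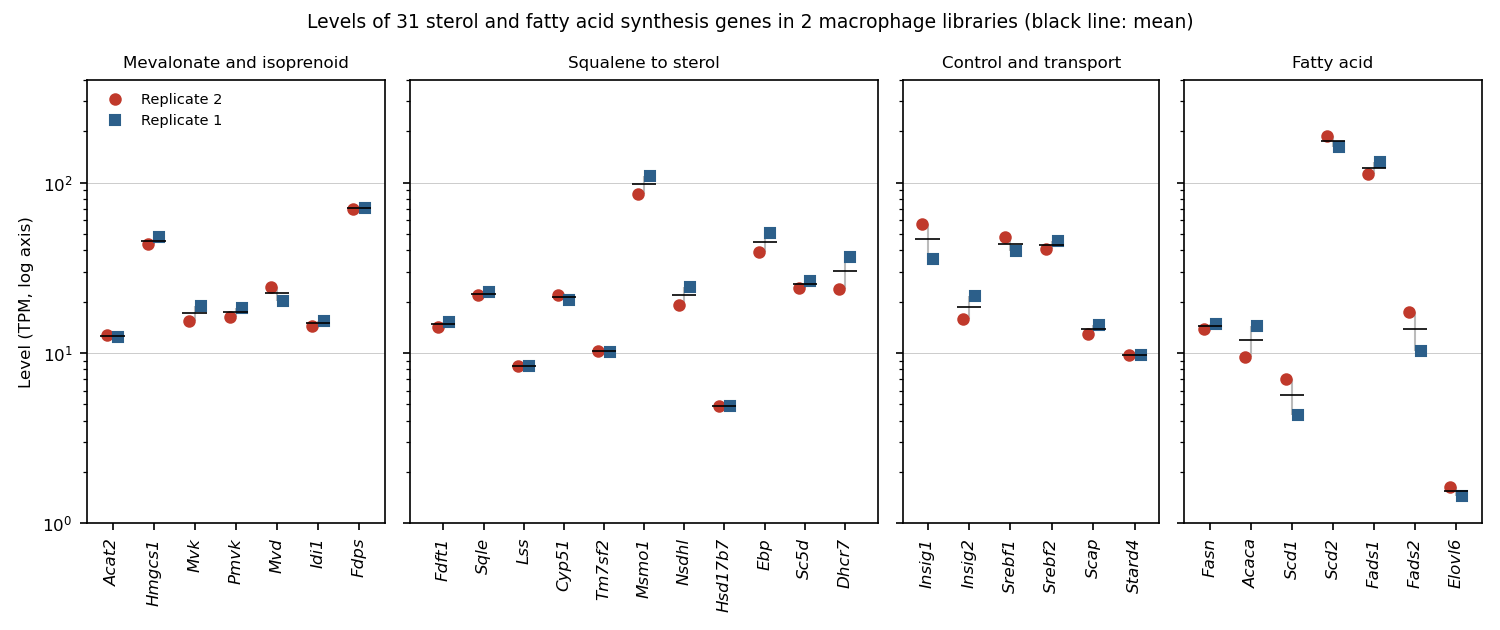
Level in TPM (log axis) of each of the 31 genes, grouped by role, with replicate 2 as red circles, replicate 1 as blue squares and the mean as a black line. Scd2 and Fads1 are above 100 TPM in both libraries and Elovl6 is lowest, at 1.64 and 1.45 TPM.

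The 7 genes of the mevalonate and isoprenoid steps ranged from 12.7 to 70.3 TPM in replicate 2 and from 12.4 to 71.3 TPM in replicate 1. Fdps, which makes farnesyl diphosphate (chromosome 3, 89093588 to 89101959, mm10), was the highest, at 70.3 TPM in replicate 2 and 71.3 TPM in replicate 1. Hmgcs1, the cytosolic HMG-CoA synthase (chromosome 13, 119690379 to 119708260) whose promoter holds the near match shown above, stood at 43.5 and 47.7 TPM. Both libraries therefore placed these 2 genes above the other 5. Mvd, which decarboxylates mevalonate diphosphate, stood at 24.3 TPM in replicate 2 and 20.3 TPM in replicate 1. The kinases Pmvk and Mvk stood at 16.2 and 15.4 TPM in replicate 2 and at 18.3 and 18.9 TPM in replicate 1. Idi1, the isopentenyl diphosphate isomerase, stood at 14.3 and 15.5 TPM, and Acat2, the cytosolic acetyl-CoA acetyltransferase that starts the route, at 12.7 and 12.4 TPM. The order of these 5 genes was the same in both libraries except for Pmvk and Mvk.

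Between squalene and cholesterol, 11 genes ranged from 4.85 to 86.2 TPM in replicate 2 and from 4.87 to 110 TPM in replicate 1. Fdft1, squalene synthase, stood at 14.2 TPM in replicate 2 and 15.3 TPM in replicate 1, and Sqle, squalene epoxidase, at 21.7 and 22.8 TPM. Lss, which closes the ring to lanosterol, was low at 8.33 and 8.37 TPM. The enzymes that remove the methyl groups of lanosterol were uneven in level. Msmo1, the sterol C4 methyl oxidase (chromosome 8, 64718139 to 64733792), was highest at 86.2 TPM in replicate 2 and 110 TPM in replicate 1. Its partners in the same demethylation, Nsdhl and Hsd17b7, stood at 19.2 and 4.85 TPM in replicate 2 and at 24.3 and 4.87 TPM in replicate 1. Cyp51, the lanosterol C14 demethylase, stood at 21.9 and 20.3 TPM, and Tm7sf2, a sterol C14 reductase, at 10.3 and 10.1 TPM. Among the last steps Ebp, the sterol isomerase, stood at 38.9 and 50.3 TPM and Sc5d, the sterol C5 desaturase, at 24.2 and 26.4 TPM. Dhcr7, the terminal reductase of the branch through 7-dehydrocholesterol, stood at 23.8 TPM in replicate 2 and 36.5 TPM in replicate 1, the widest gap of the sterol enzymes relative to its level.

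Among the genes of control and transport, the SREBP genes had means within their spread. Srebf2 (chromosome 15, 82147181 to 82205379), which mainly drives cholesterol synthesis, stood at 40.9 TPM in replicate 2 and 45.6 TPM in replicate 1. Srebf1 (chromosome 11, 60199089 to 60222581), which mainly drives fatty acid synthesis, stood at 48.0 TPM in replicate 2 and 39.4 TPM in replicate 1. The log2 ratio of Srebf2 to Srebf1 was -0.23 in replicate 2 and 0.21 in replicate 1, with a mean of -0.01 ± 0.31 (SD, n = 2). In the FASTQ-derived table it was -0.33 in replicate 2 and -0.0047 in replicate 1, so the opposite order in the libraries was not seen there. Insig1 was above Insig2 in both libraries, with 57.3 against 15.9 TPM in replicate 2 and 35.6 against 21.5 TPM in replicate 1, or 3.61-fold and 1.66-fold. Much of the gap in Insig2 between the libraries was in Insig2-212, a transcript of 478 bases. It stood at 0.98 TPM in replicate 2 and 6.45 TPM in replicate 1, on 4.14 and 38.65 counts, whereas Insig2-201 stood at 11.5 and 13.0 TPM. With the deposited posterior mean TPM the log2 ratio of Insig1 to Insig2 was smaller, at 1.10 in replicate 2 and 0.36 in replicate 1, against 1.85 and 0.73. Scap, the escort protein, stood at 12.9 and 14.6 TPM. Stard4, a cytosolic sterol carrier, stood at 9.66 TPM in both.

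Among the fatty acid genes the desaturases Scd2 and Fads1 were far above the others, whereas the desaturases Scd1 and Fads2 were not. Scd2, a stearoyl-CoA desaturase that introduces the first double bond (chromosome 19, 44293674 to 44306864), had the highest level of all 31 genes, at 188 TPM in replicate 2 and 162 TPM in replicate 1. Its neighbour and paralogue Scd1 (chromosome 19, 44394455 to 44407879) stood at 6.99 and 4.31 TPM, so that Scd2 was 26.9-fold and 37.6-fold above it. In counts this was 20751 against 678 in replicate 2 and 23520 against 473 in replicate 1. Of the 4794 stretches of 31 bases in the main Scd1 transcript, 5.26% also occur in Scd2. Fads1, the delta-5 desaturase of polyunsaturated fatty acids (chromosome 19, 10182888 to 10196877), stood at 112 and 131 TPM. Fads2, the delta-6 desaturase encoded beside it (10062765 to 10101746), stood at 17.4 TPM in replicate 2 and 10.3 TPM in replicate 1. Fads1 was thus 6.47-fold and 12.8-fold above Fads2. Of the enzymes that build the chain, Fasn was above Scd1 in both libraries by gene total, and Elovl6 was below every desaturase. In replicate 2 transcripts annotated as not coding held 53.8% of Fasn TPM, and the order rested on them. The coding transcripts there were Fasn-201 at 5.87 TPM and Fasn-205 at 0.49 TPM, against 6.99 TPM for Scd1. In replicate 1 Fasn-201 alone, at 4.86 TPM, was above Scd1 at 4.31 TPM. Fasn, fatty acid synthase, stood at 13.8 and 14.8 TPM, Acaca, acetyl-CoA carboxylase, at 9.43 and 14.4 TPM, and Elovl6, an elongase of palmitate, at 1.64 and 1.45 TPM.

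The libraries were compared gene by gene. Ratios are replicate 2 over replicate 1, on counts scaled by edgeR's TMM factors with 0.5 added, and their exact 95% binomial intervals cover counting error only. With 1 library on each side no p-value was computed. All 31 genes had at least 20 counts in each library. None was 2-fold apart in either direction, where 1.94% of 12471 genes with that many counts passed 2-fold upward in replicate 2 and 0.521% passed it downward, so a count of 0 among 31 genes is near the background. The median log2 ratio was -0.03 over the 31 genes and -0.03 over all 12804 genes with a mean of at least 20 counts. The median size of the log2 ratio, without its sign, was 0.15 over the 31 genes and 0.20 over all. By direction 14 genes were higher and 17 lower, beside 5921 and 6883 of all 12804 genes. The interval was above 0 for 7 of the 31 (background 23.3%) and below 0 for 10 (background 31.2%), shares near the background.

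A limit of 1.5-fold, chosen after the ratios were seen, was passed upward by 3 of 31 genes (background 6.22%) and downward by none (background 3.21%). Both counts are near the background. Scd1 had the highest ratio, with 678 counts in replicate 2 against 473 in replicate 1, a log2 ratio of 0.97 (interval 0.80 to 1.15). Fads2 had 1061 against 830 counts, a log2 ratio of 0.81 (0.68 to 0.94). Insig1 had 2800 against 2384 counts, a log2 ratio of 0.69 (0.61 to 0.77). Of these, Scd1 and Fads2 are desaturases and Insig1 is the feedback protein of the sterol pathway. Their nearest relatives did not share the ratio. Scd2 was at 0.27 (0.25 to 0.30), Fads1 at -0.16 (-0.20 to -0.12) and Insig2 at -0.16 (-0.31 to -0.01). At the other end Dhcr7 had 1133 counts in replicate 2 against 2276 in replicate 1, a log2 ratio of -0.55 (-0.66 to -0.45). Msmo1 was at -0.31 (-0.38 to -0.25) and Nsdhl at -0.29 (-0.42 to -0.16).

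**Figure D3:**
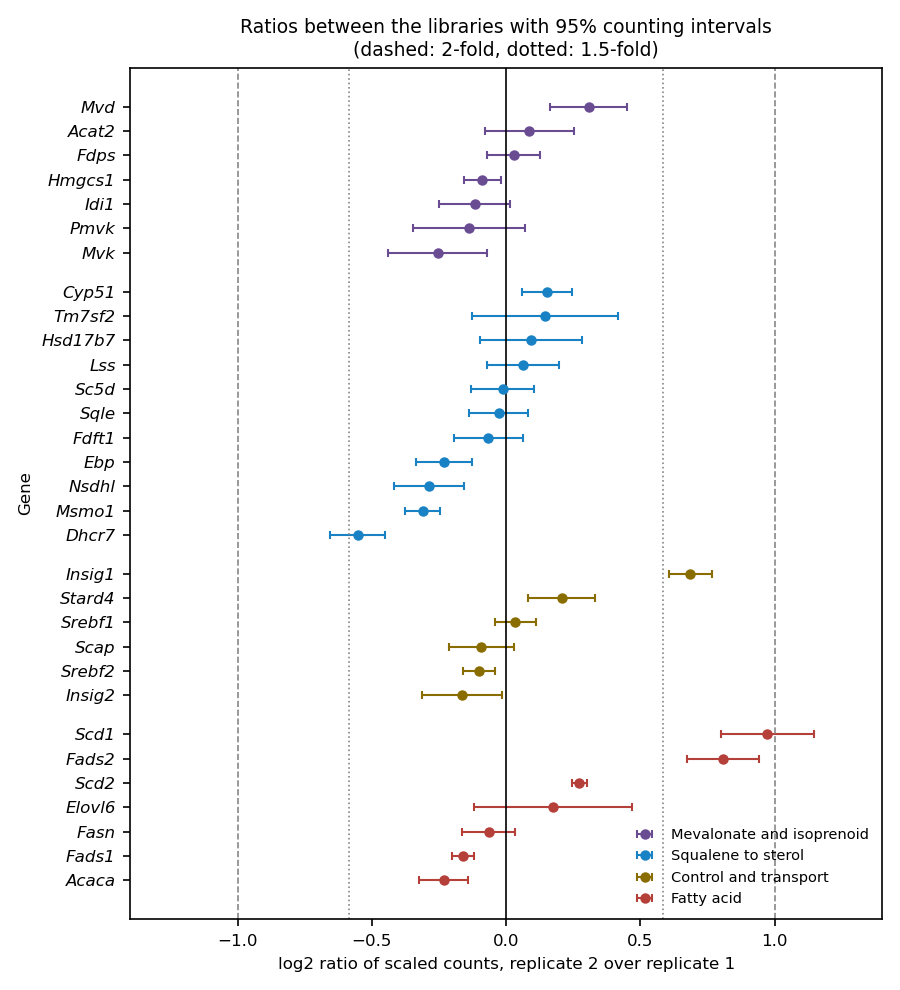
The log2 ratio of scaled counts, replicate 2 over replicate 1, for the 31 genes by role, with bars for the exact 95% counting interval and vertical lines at 1.5-fold (dotted) and 2-fold (dashed). Scd1, Fads2 and Insig1 are beyond 1.5-fold and no gene is beyond 2-fold.

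By role, the median log2 ratio was -0.09 over the 7 mevalonate genes, -0.03 over the 11 later sterol genes, -0.03 over the 6 genes of control and transport and 0.18 over the 7 fatty acid genes. Each group had members in both directions, so none moved as 1 block between the libraries. In the mevalonate group Mvd was at 0.31 (0.16 to 0.45) and Mvk at -0.25 (-0.44 to -0.07). Among the later sterol genes Cyp51 was at 0.15 (0.06 to 0.25). Among the fatty acid genes Acaca was at -0.23 (-0.32 to -0.14) and Fasn at -0.07 (-0.16 to 0.03). Stard4 was at 0.21 (0.08 to 0.33), although its TPM was equal in the libraries.

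Srebf1 showed how a TPM and a count can differ. Its TPM was higher in replicate 2, at 48.0 against 39.4 TPM, whereas the ratio of its scaled counts was 0.03 (-0.04 to 0.11). Most of the gap in TPM was in 1 transcript. Srebf1-210, a transcript of 662 bases annotated as a processed transcript, stood at 13.1 TPM in replicate 2 and 6.25 TPM in replicate 1 on 105 and 69 counts. The main coding transcript, Srebf1-201 of 4299 bases, stood at 18.5 and 20.8 TPM on 1588 and 2341 counts. A short transcript turns few counts into many TPM. Srebf1-201 starts at position 60220604, and Srebf1-207, a coding transcript that starts at position 60210465 on the same minus strand, stood at 9.74 TPM in replicate 2 and 9.44 TPM in replicate 1. Srebf1 is known to make its 1a and 1c forms from alternative first exons, and the annotation does not name which start gives which form. Transcripts annotated as not coding held 35.7% of Srebf1 TPM in replicate 2 and 18.9% in replicate 1.

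Most of the other genes rested on a single coding transcript. The counts of transcripts given here were made for the 31 genes only, so they cannot set the 31 apart from other genes. A coding transcript led in all 31 genes, in both libraries and both deposited quantifications. In the alignment-derived table it held at least 80% of the TPM of 23 genes in replicate 2 and 22 in replicate 1. The quantifications, one derived from alignments and one directly from FASTQ files, named the same leading transcript for 30 of 31 genes in each library. Fasn was the exception. Its alignment-derived level was led by Fasn-201 (10050 bases), at 5.87 TPM in replicate 2 and 4.86 TPM in replicate 1, and the FASTQ-derived level by Fasn-205 (8333 bases), at 5.29 and 5.87 TPM. The retained-intron transcript Fasn-203 was at 4.08 TPM in replicate 2 and 3.64 TPM in replicate 1 in the alignment-derived table, and at 0.94 and 0.43 TPM in the FASTQ-derived table. For Fasn-202, also a retained intron, these values were 3.34 and 3.77 TPM, then 0.53 and 0.54 TPM. Insig1 had a retained-intron transcript, Insig1-202, at 3.60 TPM in replicate 2 and 0.69 TPM in replicate 1, on 36 and 9.34 expected counts. The FASTQ-derived table gave 4.46 and 0.95 TPM for it. Thus in both tables it was higher in replicate 2, as was Insig1-201, at 53.7 and 34.9 TPM in the alignment-derived table.

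**Figure D4:**
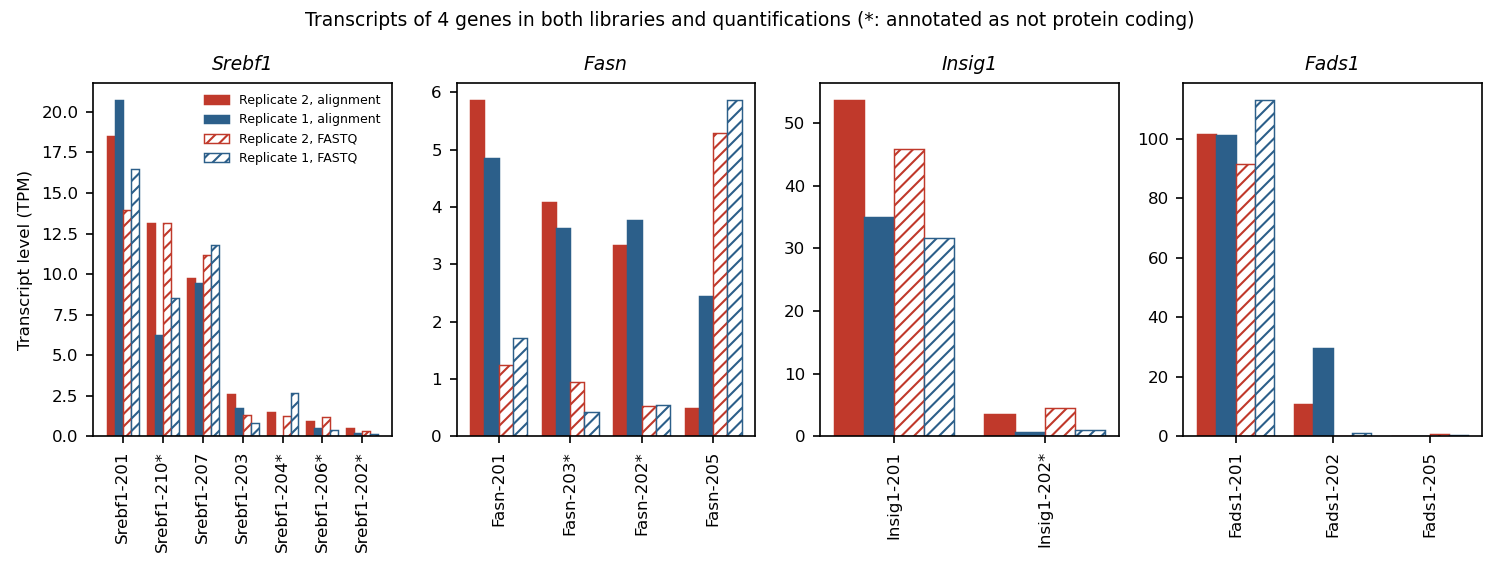
Level in TPM of each transcript of Srebf1, Fasn, Insig1 and Fads1 that reached 0.5 TPM in any table, with filled bars for the alignment-derived and hatched bars for the FASTQ-derived table, replicate 2 in red and replicate 1 in blue. The split of Fasn between transcripts depends on the table, and Srebf1-210 and Insig1-202 are higher in replicate 2 in both.

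Between the quantifications, gene levels were close. The FASTQ-derived TPM was lower by a median log2 ratio of -0.18 over detected protein-coding genes, and after centring on that shift 1 of 31 genes was 1.5-fold apart, beside 1.89% of 10588 protein-coding genes. This was Fasn, at 8.31 ± 0.431 TPM in the FASTQ-derived table and 14.3 ± 0.735 TPM in the alignment-derived table (SD, n = 2). The log2 ratio of Fasn to Acaca was 0.55 in replicate 2 and 0.05 in replicate 1 in the alignment-derived table, and turned to -0.14 and -0.80 in the other. Fads1-202 stood at 10.7 TPM in replicate 2 and 29.7 TPM in replicate 1 in the alignment-derived table, but at 0.00 and 1.06 TPM in the FASTQ-derived table, while the gene total moved little. Msmo1-206, a processed transcript, likewise held 11.8 and 18.7 TPM in the alignment-derived table and none in the other.

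**Figure D5:**
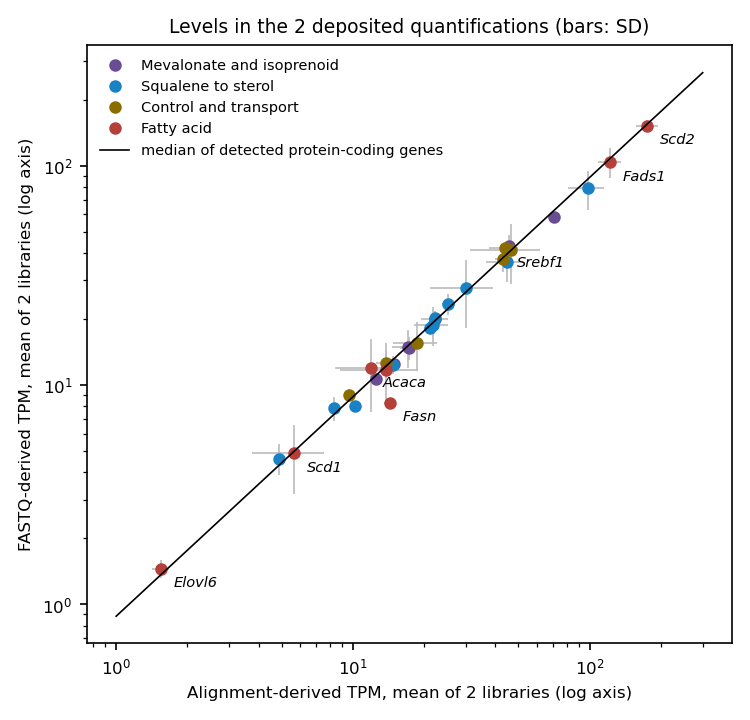
Mean TPM of each of the 31 genes in the alignment-derived table (horizontal, log axis) against the FASTQ-derived table (vertical, log axis), with bars for the SD of 2 libraries and a line at the median ratio of detected protein-coding genes. Fasn lies farthest from the line, at 14.3 and 8.31 TPM.

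Sequence shared with other genes limits some levels. Of 31 genes, 14 had no stretch of 31 bases in their main transcript that occurs in a transcript of another gene, and 7 had at least 10%. Fdps shared 85.7%, most of it with Gm43738, an annotated gene at 0 TPM that spans it. Acaca shared 59.9% with Gm5182, at 0.19 TPM in replicate 2 and 0.16 TPM in replicate 1, and Acat2 50.5% with Acat3, at 0.00 and 0.02 TPM. Idi1 shared 32.0% with 1060 other genes. Most of this, 21.9%, was shared with Gm13502, at 0.78 TPM in replicate 2 and 1.95 TPM in replicate 1. Fdft1 shared 47.5%, over 2 other genes. Fdft1 overlaps Ctsb, a highly expressed cathepsin gene on the opposite strand, at 8850 and 9718 TPM, with which 26.2% of its main transcript is shared. Mvd, Cyp51, Tm7sf2 and Srebf1 also overlap a detected gene. The sources used here do not state whether strand was used in counting, so the levels of Fdft1, Mvd, Cyp51 and Srebf1 cannot be separated with certainty from those of genes on the opposite strand.

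Other genes of the pathway were expressed at like levels. Among 19 further known SREBP targets, 15 were at 1 TPM or more in both libraries, with a median of 16.2 TPM in replicate 2 and 15.4 TPM in replicate 1. Npc1, a lysosomal cholesterol transporter, led at 124 and 169 TPM, followed by Slc25a1, the mitochondrial citrate carrier, at 90.3 and 109 TPM and Acly, ATP citrate lyase, at 71.7 and 83.0 TPM. Pnpla3 was lowest, with 0 counts in replicate 2 and 1 count in replicate 1. None of the 17 with a mean of at least 20 counts passed the 2-fold rule (background 1.94% upward and 0.521% downward). All 9 genes that process or degrade the SREBP and Insig machinery were detected, with a median of 21.6 TPM in replicate 2 and 22.7 TPM in replicate 1. Among them Erlin1 was at 34.4 and 32.3 TPM and Rnf145 at 25.0 and 25.5 TPM. None of the 9 passed the 2-fold rule either, and both counts of 0 are near the background.

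Of 10 genes of the LXR and oxysterol side 9 were detected. The cholesterol exporter Abcg1 led at 137 TPM in replicate 2 and 131 TPM in replicate 1, followed by Nr1h3, which encodes LXR alpha, at 104 and 149 TPM and by the exporter Abca1 at 73.1 and 105 TPM. The median log2 ratio of these 10 genes was -0.17, with 2 higher and 8 lower in replicate 2, beside 5921 and 6883 of all 12804 genes. The interval was above 0 for 2 of the 10 (background 23.3%) and below 0 for 6 (background 31.2%). Ch25h, which makes 25-hydroxycholesterol, an oxysterol that restrains SREBP processing, was lowest, at 3.02 TPM in replicate 2 and 0.89 TPM in replicate 1. It was the 1 gene of this list past 2-fold (background 1.94% upward and 0.521% downward). Its 70.9 and 27.9 expected counts gave a log2 ratio of 1.77 (1.15 to 2.48).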

How the data were processed

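Each library has 3 tables that the authors deposited, made on mm10 with annotation M21, per the deposited notes. Gene and transcript tables derived from alignments give expected counts, TPM and FPKM, per the file headers. A transcript table derived from FASTQ files gives estimated counts and TPM, per the file headers. The sources used here name neither aligner nor quantifier. Expected counts were rounded to whole numbers. Levels are alignment-derived TPM. Symbols, transcript types and coordinates came from GENCODE M21, and promoter windows from RefSeq. Counts were scaled with the TMM method (edgeR 4.0.16, R 4.3.3). Alternatives were the size factors of DESeq2 1.42.0, total counts, other filters and the FASTQ-derived table. The ratio is replicate 2 over replicate 1 after adding 0.5, with an exact Clopper-Pearson 95% interval, although reads are not independent molecules. With 1 group of 2 libraries nothing was tested. Ratios, intervals and the motif search were checked on simulated data. Every one of the 31 genes is named. From the further lists the 3 highest genes, the lowest and those 2-fold apart are named, except for some that are not reported here. Genes and lists were chosen with earlier results of these data known. Scripts ran in Python 3.11.15 (pandas 2.3.3, numpy 2.4.6, scipy 1.17.1), with figures from matplotlib 3.10.9.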

Additional observations from a re-analysis of the deposited data

How the results depend on the processing

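The mean log2 ratio of Srebf2 to Srebf1 was -0.17 in the FASTQ-derived table against -0.01. The count of detected genes was 31 in the FASTQ-derived table, without either replicate and at 0.5 TPM, 28 at 5 TPM and 30 at 1 FPKM. The median level, 18.7 TPM over the means of both libraries, was 15.5 TPM in the FASTQ-derived table, 20.8 TPM with posterior mean TPM, and 17.4 to 20.3 TPM with 1 replicate left out. The share of all TPM was 0.0883% in the FASTQ-derived table. No gene was 2-fold apart under any of the scalings, count filters or tables tried. The number past 1.5-fold was 3 with DESeq2 size factors, total counts or 5 added to counts, 4 with FASTQ-derived counts, where Dhcr7 also passed, and 5 by TPM, where Dhcr7 and Acaca also passed. This limit and the use of TPM ratios were chosen after seeing the data. Signs changed for Fdps and Srebf1 with FASTQ-derived counts, and for Fdps, Lss and Hsd17b7 by TPM, where Stard4 was at 0. By TPM 10 genes were higher and 20 lower. The median log2 ratio by TPM was -0.10 over the 31 genes and -0.07 over all 12471 genes with at least 20 counts in each library. The median over all genes was thus also below 0 by TPM, and its part in the split was not tested. Motif counts depended on the letters, with 3 genes at 1 mismatch and 1 for the shorter form, against 0. The causes of these shifts were not tested. No paired analysis was possible because there is a single group. Depth leaves wide intervals for Elovl6 and Tm7sf2, which had the fewest counts.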
